A study of Mus musculus with 10 samples.

Results

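This section describes the H3K27me3 islands that were listed in wild-type (WT) mouse embryonic stem cells, were not listed after loss of BAF250a, and carried no H3K4me3 island in either genotype. An island is an interval that the authors' peak caller listed as enriched over its control. The members are autosomal islands of the WT H3K27me3 list that overlap no island of the knockout (KO) H3K27me3 list and none of both H3K4me3 lists by 1 bp. Islands in 3 crowded segments were left out, on chromosome 4 (145000000 to 148000000), chromosome 13 (12800000 to 13100000) and chromosome 14 (1 to 9000000). This left 2747 members of 8067 WT H3K27me3 islands and of 84243 islands in the 4 lists. The members were chosen by whether islands were listed at the same place in the other 3 lists. The absence of a listed KO island at them is therefore how they were defined and not a finding. KO reads at the members are not in the lists.

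The KO cells are labelled BAF250a Knockout and were treated 4 hours after passaging with 4-hydroxytamoxifen at 1 µM, for 36 hours. The WT cells were given ethanol instead, over the same time, so effects of genotype and drug cannot be told apart. Both were 129/C57BL/6 embryonic stem cells grown with LIF and serum on fibroblast feeders, so feeder chromatin may be present in either. The KO sample behind the H3K27me3 list is titled H2K27me3 but its antibody label reads H3K27me3, and it was taken as H3K27me3. The series holds 10 samples, and the H3K27me3 and H3K4me3 lists rest on 1 library per genotype and mark. No difference between KO and WT can therefore be set against a replicate spread, and no p-value between genotypes is given.

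H3K27me3 is laid down by Polycomb repressive complex 2 and marks silent developmental genes. In embryonic stem cells it often lies together with H3K4me3, a promoter mark, at CpG-rich promoters called bivalent. H3K27me3 without H3K4me3 is found in the flanks of such promoters, in wide Polycomb domains and at lower level between genes. BAF250a, encoded by Arid1a, is a DNA-binding subunit of the BAF (SWI/SNF) remodelling complex, which is known to oppose Polycomb occupancy. Positions below are in mm9, counted from 1. Which genes they overlap was not determined, because no gene positions of this build were used.

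The members were small islands with few reads. Their median width was 2600 bp (95% rank interval 2400 to 2600 bp), with 5th and 95th percentiles of 1200 and 4800 bp. They held a median of 54 ChIP reads, with 5th and 95th percentiles of 37 and 104 reads, and 161 of 2747 (5.86%, 95% exact binomial interval 5.01 to 6.81%) held 100 or more. The WT islands without H3K4me3 that did have a KO island, called shared islands here, were wider (median 3000 bp) and held more reads (median 69). Of these 1297 shared islands, 369 held 100 or more reads (28.5%, 26.0 to 31.0%). Together the members covered 7.40 Mb and held 14.5% of all reads in WT H3K27me3 islands. The intervals treat islands as independent draws and do not cover the spread between libraries.

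In fold over control the members were not below shared islands, but their control counts were low. They held a median of 8 control reads, against 13 in shared islands without H3K4me3. There were 1 to 3 control reads in 510 of the 2747 members and in 111 of the 1297 shared islands, so many single folds rest on very few control reads. The deposited fold, which is the authors' value for each island, had a median of 4.17 in members (3.99 to 4.36) and 3.38 in shared islands without H3K4me3 (3.25 to 3.51). It was 2 or more in 2315 members (84.3%, 82.9 to 85.6%) and 5 or more in 1141 (41.5%, 39.7 to 43.4%), against 79.4% and 29.9% of shared islands. The deposited adjusted p-value was 1e-05 or less in 2398 members (87.3%), against 88.7% of shared islands. WT-only islands that did carry H3K4me3 were lower, with a median fold of 1.88 (1.83 to 1.95) over 1149 islands. Summed over all their reads the members were 3.30-fold over control, shared islands without H3K4me3 2.51-fold and WT-only islands with H3K4me3 1.84-fold.

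The spread of fold among the members came with their control reads. ChIP density was nearly uniform, with a median of 22.3 reads per kb and 5th and 95th percentiles of 17.7 and 31.7, a 1.79-fold range. Control density ran over an 18.1-fold range, between 0.535 and 9.67 reads per kb, with a median of 3.12 (3.00 to 3.25). On the log2 scale the SD over members was 0.28 for ChIP density, 1.32 for control density and 1.31 for fold. Fold is computed from these ChIP and control reads, so its spread is tied to theirs. The same order was seen in other classes. The SDs were 0.330, 1.12 and 1.09 in shared islands without H3K4me3. In islands only in the KO list and without H3K4me3 they were 0.264, 0.674 and 0.638. Control density had a median of 4.50 reads per kb in shared islands without H3K4me3, 8.24 in WT-only islands with H3K4me3 and 12.1 over the whole WT H3K4me3 list. The members thus lay where the WT input gave few reads, and 68 of them (2.48%) held no control read at all, against 12 of 1297 shared islands (0.925%). The part that low input reads play in the high folds was not tested beyond these values.

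**Figure D1:**
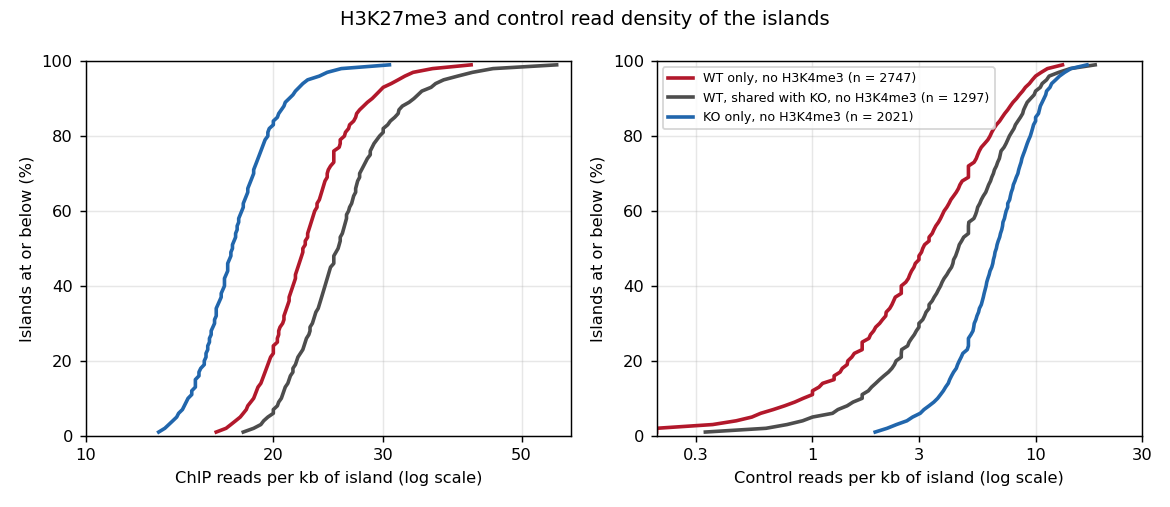
Cumulative share of islands (percent, vertical axis) by ChIP reads per kb (left, log scale) and control reads per kb (right, log scale), for WT-only islands without H3K4me3, shared WT islands without H3K4me3 and KO-only islands without H3K4me3. In the right panel the WT-only curve lies furthest to the left, with a median of 3.12 control reads per kb against 4.50 for shared and 6.67 for KO-only islands, and the left curves are steep.

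Among the 10 members with most ChIP reads, widths ran between 3.20 and 15.2 kb and folds between 1.14 and 3.43. The island with most reads, at chromosome 18, 80194001 to 80208400, held 423 ChIP and 94 control reads over 14.4 kb. Its fold was 2.68, with a counting interval of 2.14 to 3.39, and the nearest KO H3K27me3 island lay 309 kb away. The widest member, at chromosome 11, 96259001 to 96274200, held 378 ChIP and 152 control reads over 15.2 kb, a fold of 1.48 (1.22 to 1.80), with a KO island 10.6 kb away. Both lay 2.80 kb from another WT H3K27me3 island.

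Distance from the KO islands varied widely among the next islands in the order of reads. At chromosome 5, 119502801 to 119514000, 304 ChIP and 142 control reads gave a fold of 1.28 (1.04 to 1.57), and the nearest KO H3K27me3 island lay 590 kb away. At chromosome 11, 111699801 to 111710400, 289 ChIP and 81 control reads gave 2.13-fold (1.66 to 2.76), with no H3K4me3 island of either genotype nearer than 770 kb. It lay furthest from H3K4me3 of the 10 islands with most reads, but had another WT H3K27me3 island 1.00 kb away.

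At chromosome 7, 149926601 to 149937200, 213 ChIP and 37 control reads gave the highest fold of these 10, at 3.43 (2.41 to 5.01). Of the 10, 5 had a fold under 1.5. For 3 of those, at chromosome 18 (3007401 to 3012200), chromosome 2 (22442801 to 22446000) and chromosome 1 (84976001 to 84983000), the counting interval of the fold reached below 1. These 3 had 29.8, 38.8 and 14.4 control reads per kb, far above the median of the members. The other 2 of the 10 lay at chromosome 6, 83379201 to 83385600 (1.92-fold), and chromosome 13, 56299001 to 56307000 (1.52-fold).

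**Figure D2:**
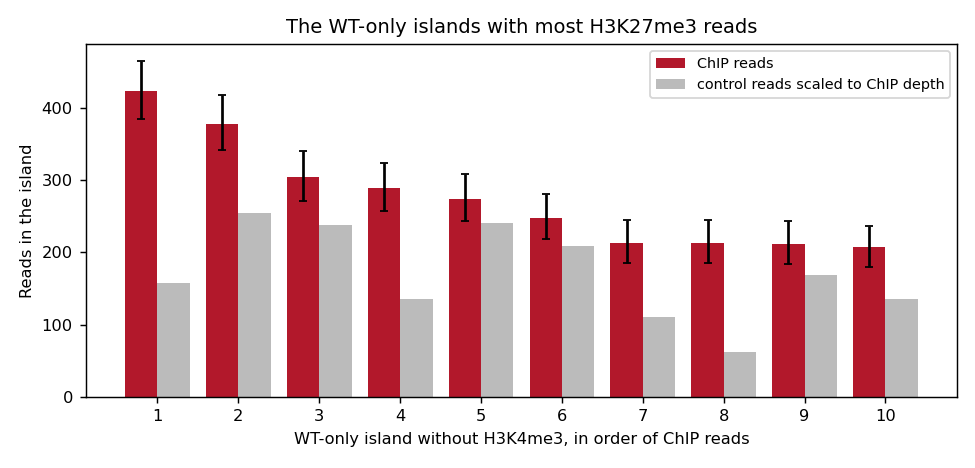
Reads in the 10 WT-only islands without H3K4me3 that had most ChIP reads (horizontal axis, in order of reads). Dark bars are ChIP reads with 95% exact Poisson intervals, grey bars control reads multiplied by the ChIP to control depth ratio of 1.68. ChIP reads run between 423 and 207, and in the islands ranked 3, 5, 6 and 9 the grey bar comes close to the dark one.

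The members with the highest fold were a different group of islands from those with most reads. Among members with 100 or more reads, the highest fold was at chromosome 2, 98679001 to 98683200, with 115 ChIP reads and no control read. Set against 3 control counts for the island, the limit that a count of 0 allows, it was at least 22.9-fold enriched, a bound that leaves out the counting error of the ChIP reads. It also had the lowest deposited adjusted p-value of all members, 5.02e-233, and a KO H3K27me3 island no nearer than 1074 kb. That p-value is a Poisson tail with 0.25 in place of the control count of 0, so its size and rank depend on this substitute. The next ones had 6 to 8 control reads each.

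At chromosome 6, 76064201 to 76069400, there were 128 ChIP and 7 control reads, a fold of 10.9 (5.14 to 27.7), with the nearest WT H3K27me3 island 1114 kb away. At chromosome 2, 111441401 to 111446200, 107 ChIP and 6 control reads gave 10.6-fold (4.73 to 29.6). At chromosome 10, 112282201 to 112286600, 100 and 6 reads gave 9.94-fold (4.41 to 27.7), and at chromosome 6, 67337801 to 67344000, 126 and 8 reads gave 9.39-fold (4.62 to 22.2). With so few control reads the intervals of these folds are wide.

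The other islands with the lowest adjusted p-values were narrower and had at most 1 control read, so their rank too rests on very low control counts. At chromosome 14, 84855201 to 84859200, 90 ChIP reads stood over 1 control read, a fold of 53.7 with a counting interval of 9.39 to 2142. Those at chromosome 3, 123471801 to 123473600 and 149995601 to 149998600, and at chromosome 14, 73472001 to 73474600, had 63, 62 and 56 ChIP reads and no control read, or at least 12.5-fold, 12.3-fold and 11.1-fold by the same bound. In all, 113 members had both 100 or more reads and a fold of 2 or more. Of these 113, 86 had no KO H3K27me3 island within 5 kb, against a larger share, 82.2%, of all 2747 members.

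Whether a WT island lacked a KO island went with its reads. Of all 7332 autosomal WT H3K27me3 islands outside the 3 segments, 53.1% had no KO island. The share was 67.9% of the 4044 without H3K4me3 and 34.9% of the 3288 with it. These shares include the members and fix how many there are, so they carry no test. In 5 classes of ChIP reads of about equal number, the share among islands without H3K4me3 was 77.9% (74.7 to 80.8%) at 19 to 44 reads, 81.4% (78.5 to 84.1%) at 45 to 52 reads and 39.4% (36.0 to 42.8%) at 83 reads or more. With H3K4me3 the lowest and highest read classes gave 79.2% and 18.9%. In the lowest read class the intervals with and without H3K4me3 overlapped, and in the highest they did not. The highest class has no upper limit, so reads are not matched within it. Of shared islands, 71.6% with H3K4me3 held 100 or more reads, against 28.5% without.

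Among islands without H3K4me3 the share also fell with control density, whereas it climbed with fold. It was 83.4% (80.5 to 86.0%) at the lowest control density and 56.6% (53.1 to 60.1%) at the highest. By fold it was 61.7% (58.3 to 65.1%) at 1.13 to 2.10-fold and 79.1% (76.1 to 81.8%) at 8.15-fold or more. The order by control density was found on both sides of the median read count. Among islands with fewer than 57 reads, the share was 83.6% at control densities below the median and 73.3% at or above it, and among those with 57 or more 66.3% and 50.8%. With H3K4me3 the share was 52.5% (36.1 to 68.5%, over 40 islands) at the lowest control density and 34.5% (32.4 to 36.5%) at the highest, with intervals that overlapped. By fold it showed no steady climb with H3K4me3, at 42.1% in the lowest class, 26.2% in the next and 43.5% in the highest. An island with few reads was listed only if its fold was high enough, so reads and fold are linked within the list.

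**Figure D3:**
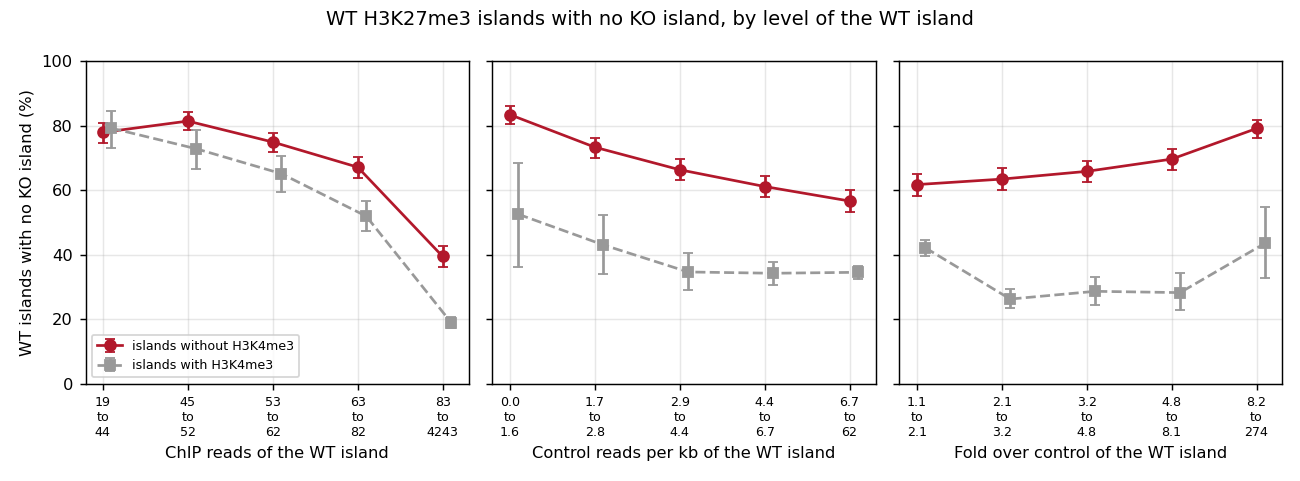
Share of WT H3K27me3 islands with no KO island (percent, with 95% exact binomial intervals) in 5 classes of ChIP reads, control reads per kb and fold over control of the WT island. Circles are islands without H3K4me3 and squares islands with it, in the same classes. The circles stand at 77.9% and 81.4% in the first read classes and descend from there to 39.4%, descend with control density to 56.6%, and climb with fold to 79.1%. By fold the squares stand at 42.1% in the lowest class, 26.2% in the next and 43.5% in the highest.

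The KO list held islands at read levels like those of the members. At widths over 2500 and up to 3500 bp, the 918 members held a median of 60 ChIP reads, and the 1503 KO islands of that width a median of 59 and a 5th percentile of 49.1. Their median control counts were 8.5 in members and 23 in KO islands. Library totals are not in the lists, so reads of KO and WT are not on one depth scale. In the 847 shared regions without H3K4me3, KO islands held 21.1 ChIP reads per kb and WT islands 26.8, a ratio of 0.789. Control reads per kb there were 9.87 in KO and 5.95 in WT, 1.66 times as high in KO, and the folds were 2.09 in KO and 2.69 in WT. In shared regions with H3K4me3, control reads were 12.1 per kb in KO and 10.3 in WT, a ratio of 1.18. The KO to WT ratio of control reads was thus higher in shared regions without H3K4me3 than in those with it. These counts are not scaled for the depth of the controls, so neither ratio alone shows that the KO control was richer there. The part of the KO control in the missing KO islands was not tested, since control reads at the members are listed for WT alone.

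The reverse class, islands only in the KO list and without H3K4me3, was smaller in number but close in share. The 2747 members were 67.9% of WT islands without H3K4me3, and the 2021 KO-only islands were 62.6% of the 3231 KO islands without H3K4me3. Over all 6066 KO H3K27me3 islands, with or without H3K4me3, 41.6% had no WT island. The members were narrower, at a median of 2600 bp against 3800 bp in KO-only islands, and more enriched, at a median fold of 4.17 against 2.51 (2.45 to 2.56). Shared islands without H3K4me3 differed in the same way between the lists, at 4200 bp and 2.42-fold in the KO list and 3000 bp and 3.38-fold in the WT list, so these differences are not particular to the members. Fold was 5 or more in 41.5% of members and in 8.36% of KO-only islands. The control density of KO-only islands was 6.67 reads per kb at the median, and none had fewer than 2 control reads. The share without a partner also went with reads in the KO list, being 72.4% in the lowest read class and 30.9% in the highest. It fell with control density there as well, from 71.7% (68.0 to 75.1%) in the lowest class to 49.3% (45.5 to 53.2%) in the highest, so that fall is not particular to the WT list. By fold the KO shares were 60.4% in the lowest class and 64.9% in the highest, with intervals that overlapped.

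Most members stood apart from any H3K27me3 island of the KO list. The median gap to the nearest one was 74.8 kb (66.6 to 82.4 kb), and 2258 members (82.2%, 80.7 to 83.6%) had none within 5 kb. KO-only islands without H3K4me3 stood equally apart from the WT list. Their median gap to a WT H3K27me3 island was 71.6 kb, and 16.4% had one within 5 kb. For the 489 members with a KO island within 5 kb, that island in 372 cases (76.1%, 72.0 to 79.8%) overlapped a neighbouring WT island. In these places the mark was listed in both genotypes close by and a separate WT island beside it was not. These 489 had a median of 58 reads and a fold of 3.13, and the remaining 2258 had 54 reads and 4.47.

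At the edge of the rule, 13 members adjoined a KO island with no base between them, and 61 lay within 600 bp of one. Just inside, the island at chromosome 7, 69574601 to 69578600, touched a KO island and had 122 reads at 4.55-fold. The other nearest members were chromosome 8, 106840001 to 106844200, chromosome 15, 28002401 to 28006200, and chromosome 17, 35550001 to 35553400 and 90858201 to 90862000, at 1.36 to 4.39-fold. Just outside, 22 islands overlapped a KO island by 200 bp or less. They include chromosome 3, 93583001 to 93586800, with 97 reads and 2.41-fold, and chromosome 6, 67329601 to 67333000, with 73 reads and 4.84-fold. Median reads were 60 in the 61 members within 600 bp of a KO island, and 53 in the 90 shared islands that overlapped one by at most 600 bp.

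The members had neighbouring islands less often than shared islands did, a trait not particular to them. In the KO list, another KO H3K27me3 island lay within 5 kb of 19.1% of KO-only islands without H3K4me3. For KO islands without H3K4me3 that had a WT island it was 54.5%. A KO H3K4me3 island lay within 5 kb of 16.7% and 37.6% of these classes. Another WT H3K27me3 island lay within 5 kb of 740 members (26.9%, 25.3 to 28.6%) and of 802 shared islands (61.8%, 59.1 to 64.5%). Among the members with no KO H3K27me3 island within 5 kb the share was 17.0%. A H3K4me3 island of either genotype lay within 5 kb of 649 members (23.6%, 22.0 to 25.3%) and of 473 shared islands (36.5%, 33.8 to 39.2%). The nearest KO H3K4me3 island was at a median of 18.0 kb from a member and the nearest WT H3K4me3 island at 27.2 kb. The KO H3K4me3 list is longer, with 40978 islands against 28365 in WT. H3K4me3 lay within 5 kb in KO alone for 192 members and in WT alone for 29.

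Fold among the members followed these surroundings. The 649 members with H3K4me3 within 5 kb had a median fold of 2.92 and 4.74 control reads per kb. The 406 members with no H3K4me3 island, no KO H3K27me3 island and no other WT H3K27me3 island within 50 kb had a median fold of 6.23 and 2.00 control reads per kb. ChIP density differed little, at 23.2 and 21.2 reads per kb. Of the 8067 WT islands, 162 were 20 kb or wider, and 133 members (4.84%, 4.07 to 5.71%) lay within 50 kb of one. Among shared islands without H3K4me3, which may themselves be that wide, 134 of 1297 did (10.3%, 8.73 to 12.1%).

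**Figure D4:**
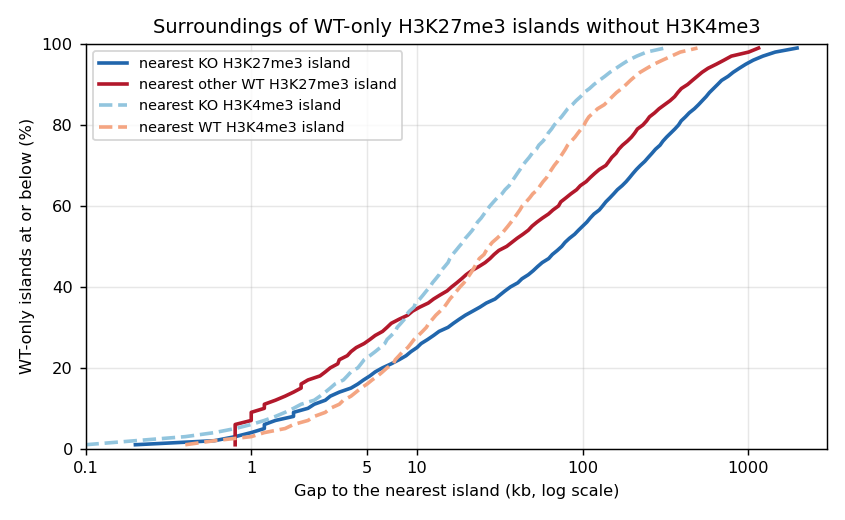
Cumulative share of the 2747 WT-only islands without H3K4me3 (percent, vertical axis) by the gap to the nearest island of each list (kb, log scale; gaps under 0.1 kb drawn at 0.1). Solid lines are H3K27me3 and dashed lines H3K4me3. KO H3K27me3 islands were the most distant, at a median of 74.8 kb, and KO H3K4me3 islands the nearest at larger distances, at a median of 18.0 kb. KO H3K27me3 was also the shortest list, with 6833 islands, and KO H3K4me3 the longest, with 40978, so gap and list length go together.

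When members less than 100 kb apart were joined, 1459 (53.1%) stood alone. The others lay in runs of neighbours, and 680 (24.8%) belonged to 171 runs of 3 or more. The longest run had 25 members and lay at the far end of chromosome 7, 149817001 to 150674000. As background, the distal end of mouse chromosome 7 is known for clusters of imprinted genes, at which Polycomb marks have been described. Which genes the islands of this run touch was not determined.

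In that run of 857 kb, H3K27me3 was listed as 40 islands covering 292 kb in KO and as 70 islands covering 382 kb in WT. The KO islands held 6125 reads at 2.20-fold over control, and the WT islands 11007 reads at 2.60-fold. Control reads per kb were 9.26 in KO and 6.61 in WT. Of the 70 WT islands, 45 had a KO island and the 25 others were all members. The members made up 95.4 kb, with a median of 81 reads and 2.42-fold, and 16 of them had a KO island within 5 kb. H3K4me3 had 17 islands in KO and 11 in WT over the same stretch. The run was picked for its many WT islands without a KO island, so a shorter listed length in KO is set by that choice and is no finding.

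The runs with most members on the other 2 chromosomes richest in members were shorter. On chromosome 2, 146922201 to 147218400, there were 8 members among 10 WT islands. H3K27me3 islands there covered 40.6 kb in KO (5 islands, 2.16-fold) and 74.0 kb in WT (10 islands, 2.04-fold). On chromosome 1, 196968601 to 197112000, 4 members lay among 6 WT islands, with 2 islands in KO. The pooled fold there was 3.29 in KO and 4.82 in WT, so the direction of the fold differed between these runs. Each of the 4 members had a fold between 2.50 and 6.06.

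All 19 autosomes held members, between 71 on chromosome 18 and 273 on chromosome 2. The share of WT islands without H3K4me3 that lacked a KO island was highest on chromosome 10 (78.8%, 72.3 to 84.4%), chromosome 13 (76.5%, 70.0 to 82.3%) and chromosome 2 (74.2%, 69.4 to 78.6%). It was lowest on chromosome 18 (55.5%, 46.4 to 64.3%) and chromosome 7 (59.5%, 54.1 to 64.7%). On these 5 chromosomes the interval did not include the share of 67.9% over all autosomes, and on the other 14 it did. Median reads of the members lay between 52 and 58 on every autosome, and median fold between 3.01 on chromosome 19 and 5.78 on chromosome 10. Chromosome 10 members also had the lowest control density, at 2.22 reads per kb, and chromosome 19 members the highest, at 4.50.

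**Figure D5:**
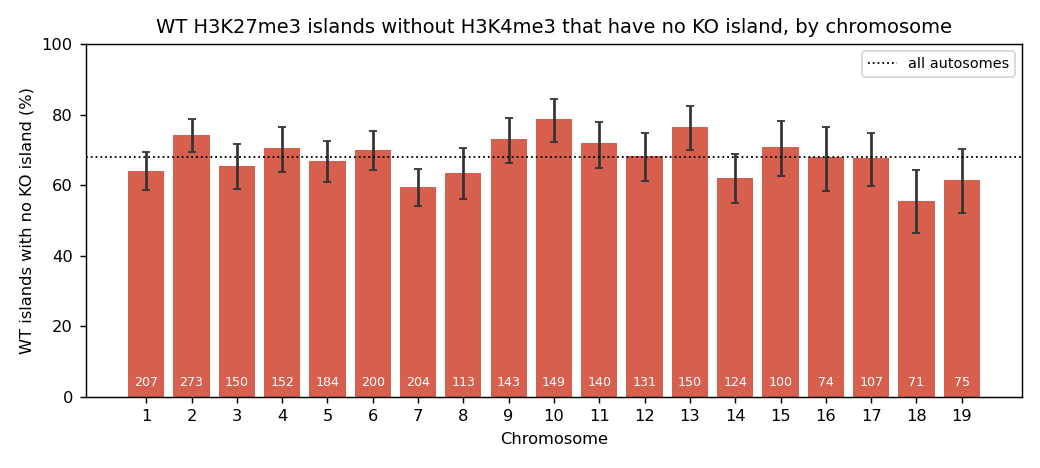
Share of WT H3K27me3 islands without H3K4me3 that have no KO island (percent, bars start at 0, with 95% exact binomial intervals) by chromosome. Numbers in the bars are the members, and the dotted line is the share over all autosomes, 67.9%. Bars run between 55.5% on chromosome 18 and 78.8% on chromosome 10.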

How the data were processed

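The values are 4 island lists, 1 per ChIP library. Per the submitters' processing notes, reads were handled with Bowtie (version not given in the sources used here) and SICER 1.1 on mm9. Windows were 200 bp, gaps 200 bp (H3K4me3) or 600 bp (H3K27me3) and the FDR 0.05, per the names of the deposited lists. Each island has deposited ChIP and control read counts, unscaled, and a p-value and adjusted p-value deposited by the authors. The deposited fold is a ratio, ChIP over control reads divided by 1.68 (WT H3K27me3) or 1.03 (KO H3K27me3), with 0.25 for a control count of 0. The p-value equals a Poisson tail of these counts in 100% of islands. The H3K27me3 islands held 839422 ChIP reads in KO and 1140878 in WT; depth outside islands is unknown.

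Here, 1 was added to starts and ends, and overlaps and gaps were computed in Python 3.11.15 (numpy 2.4.6, pandas 2.3.3, scipy 1.17.1), tested on simulated data and checked against bedtools 2.31.1 (0 islands differed). A gap counts the bases between islands. Shares have 95% Clopper-Pearson intervals, medians rank-based ones and folds of single islands conditional binomial ones, which cover counting error only; reads without molecular identifiers are not independent molecules. Named are the 10 members with most reads, the 5 widest, the 5 of highest fold with 100 or more reads, the 5 of lowest adjusted p, those nearest each side of the overlap rule and the longest run on the 3 chromosomes with most members. Members, lists and rules were chosen with earlier results of these data known. Genes, sequences, nuclease and input profiles were not analysed here.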

Additional observations from a re-analysis of the deposited data

How the results depend on the processing

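The number of members stayed between 2062 (equal list lengths) and 3222 (overlap of 50% of the smaller island), within 1.5 times 2747, under all 10 alternatives. Of 80 recomputed values, 47 stayed within the interval or range of the reported one and 33 moved. The share of WT islands without H3K4me3 that lack a KO island moved to 65.4% with 50% overlap, 70.2% with an adjusted p of 1e-05 in all lists, 65.0% with equal list lengths, 55.8% when KO islands within 5 kb counted as shared, 71.8% without islands near H3K4me3, 65.8% with sex chromosomes and 64.3% with the segments kept in. Median control reads per kb and median fold moved to 3.46 and 3.82 with 50% overlap, 2.89 and 4.55 with the adjusted p in all lists, 2.76 and 4.77 with it in the WT H3K27me3 list alone, 2.69 and 4.94 with a WT fold of 2, 2.92 and 4.47 without members near KO islands, and 2.81 and 4.63 without those near H3K4me3; with equal lengths the fold was 3.97. The share of members with no KO island within 5 kb moved to 76.1% with 50% overlap, 84.7% with the adjusted p in all lists, 84.0% with a WT fold of 2 and 86.2% without those near H3K4me3. The share with another WT island within 5 kb was the 1 value that moved by over 1.5 times, to 17.0% without members near KO islands. By construction these settings change which islands are listed or counted. With zero control counts set at 1, which is among the 80 values, or at 3, which is not, the median fold stayed at 4.17. Only 68 members (2.48%) had such counts, so neither choice could do much to move the median. No paired analysis was possible because each genotype and mark has 1 library, and the numbered nuclease samples were not analysed here. Members held few reads, so a KO signal somewhat below the listing threshold was not detectable.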

Other observations

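Islands in the places that the rule leaves out were looked at in the same way. On X, 41 of 185 WT H3K27me3 islands without H3K4me3 had no KO island (22.2%, 95% exact binomial interval 16.4 to 28.8%), against 67.9% on the autosomes. Their median was 51 reads, 4.37-fold and 3.33 control reads per kb. On Y there were 3 of 15. In the chromosome 14 segment 16 of 249 lacked a KO island (6.43%, 3.72 to 10.2%), at a median of 2.06-fold and 7.90 control reads per kb. In the chromosome 13 segment none of 19 did, which allows a share of up to 15.8% (3 counts of 19). In the chromosome 4 segment 42 of 52 did (80.8%, 67.5 to 90.4%, an interval that includes the share on the other autosomes), at a median of 59 reads and 2.99-fold.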
